A study of Mus musculus with 21 samples.

Results

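Microglia from WT mice 7 d after controlled cortical impact (CCI) were compared with microglia from sham controls, across all genes with enough counts and in both directions. The libraries were chosen by their labels for cell type, genotype and treatment. This gave 3 libraries per group and 6 of the 21 libraries in the series. The other libraries hold microglia from WT mice earlier after CCI and microglia from mice with an altered fibrinogen gamma chain after CCI. Infiltrating myeloid cells from both genotypes make up the rest. In the reported fit all 21 libraries share the estimate of spread, so that these other libraries also enter the adjusted p. CCI is an open-head model of traumatic brain injury in which a piston strikes the exposed cortex, and the sham controls, labelled wildtype, had the skull opened in the same way without being struck. All mice were adult males on the C57BL/6 background. Microglia came from tissue around the lesion and were sorted as live CD45low CD11b+ cells. The brains of 2 mice were pooled at random for each library. A library is therefore the average of 2 mice, cells whose CD45 level left the gate are not in it, and no label gives the time after sham surgery.

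Microglia are the resident macrophages of the brain. In the healthy tissue they carry receptors for purines released by their neighbours, such as P2ry12 and P2ry13, and depend on signals through Csf1r and TGF-beta. Around damaged neurons and myelin, microglia are known to lower these homeostatic genes and to raise genes for lipid handling, lysosomal breakdown and phagocytosis, such as Apoe, Clec7a and Spp1, which are called disease-associated microglia genes. Interferons induce a separate set of antiviral and antigen-presentation genes in the same cells.

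Total counts per library ranged from 18896957 to 28550018 in sham controls and from 20508605 to 27001646 at 7 d. The deposited values have gene length divided out, so that levels can be set side by side between genes as CPM, the count relative to the library's total after scaling by edgeR's TMM factors. A level of 3 counts, used as the limit of detection, came to 0.0754 to 0.114 CPM in sham controls and 0.116 to 0.143 CPM at 7 d, which leaves out every error but counting, as reads copied by amplification are not separate molecules. Ribosomal RNA took 43.4 to 47.8% of the counts in sham controls and 50.96 to 55.7% at 7 d, and genes of the mitochondrial chromosome took 21.5 to 26.5% and 34.4 to 36.7%. These shares are not separate, as mitochondrial ribosomal RNA is counted in both. Their ranges did not overlap between groups, and the TMM factors moved with them, at 1.39 to 1.55 in sham controls and 0.958 to 1.02 at 7 d. The gene with the most counts, CT010467.1, had ranges that did overlap, 21.6 to 29.7% in sham controls and 21.7 to 24.7% at 7 d. The libraries carried the defining markers of microglia, with a summed level over 14 markers of 13089, 13464 and 15065 CPM in sham controls and 9860.0, 9079 and 9506 CPM at 7 d. In bulk RNA, fewer cells of a type and less RNA per cell cannot be told apart. Markers of neutrophils stood apart in sham library 3 and in 7 d library 1, and immediate early genes stood apart in sham library 1. All replicates differed from each other beyond counting noise, computed as if the length-scaled counts were reads.

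Between 7 d and sham, 481 of the 23815 genes tested (2.02%) passed both thresholds, a log2 fold change beyond 1 in either direction and an adjusted p below 0.05 (edgeR quasi-likelihood test, Benjamini-Hochberg). Of these, 459 were higher at 7 d (1.93% of genes tested) and 22 were lower (0.0924%). The higher genes went from a median of 5.02 CPM in sham controls to 18.2 CPM, and 188 of them were more than 4-fold and 50 more than 16-fold higher. The lower genes were better expressed in sham controls, with a median of 29.5 against 8.69 CPM, and 3 of them were more than 4-fold lower. In 479 of the 481 the groups' libraries did not overlap (P2ry2 and Gm8865 were the others, named after their values were seen), which was also so for 20.1% of all genes tested (10.5% higher and 9.59% lower). The higher genes comprised 359 protein-coding genes and 87 annotated as pseudogenes, and all of the 22 lower genes were protein-coding. Before adjustment 2783 genes had a p under 0.05, of which 1926 were higher and 857 lower.

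The split between higher and lower genes depended on how the libraries were scaled, and also on the libraries fitted and the tool. With total counts and no TMM factors, 204 genes were higher and 622 lower, and the median of all genes moved to a log2 fold change of -0.47. With totals that left out ribosomal RNA and mitochondrial genes, also without TMM factors, 279 were higher and 106 lower around a median of -0.18. In both of these scalings 222 of the 481 genes were called. With TMM factors kept, 440 were higher and 60 lower in a fit of microglia libraries only. A fit of the compared groups alone gave 373 and 59, and the DESeq2 Wald test on all libraries 710 and 97. In the reported fit, leaving out sham library 1 lowered the count of 481 to 283 genes, and the other libraries gave between 348 and 486. The 22 lower genes became 13, 11 and 13 without 7 d library 2, 7 d library 3 and sham library 3. With any 1 library left out, 218 of the 481 genes kept their call.

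**Figure D1:**
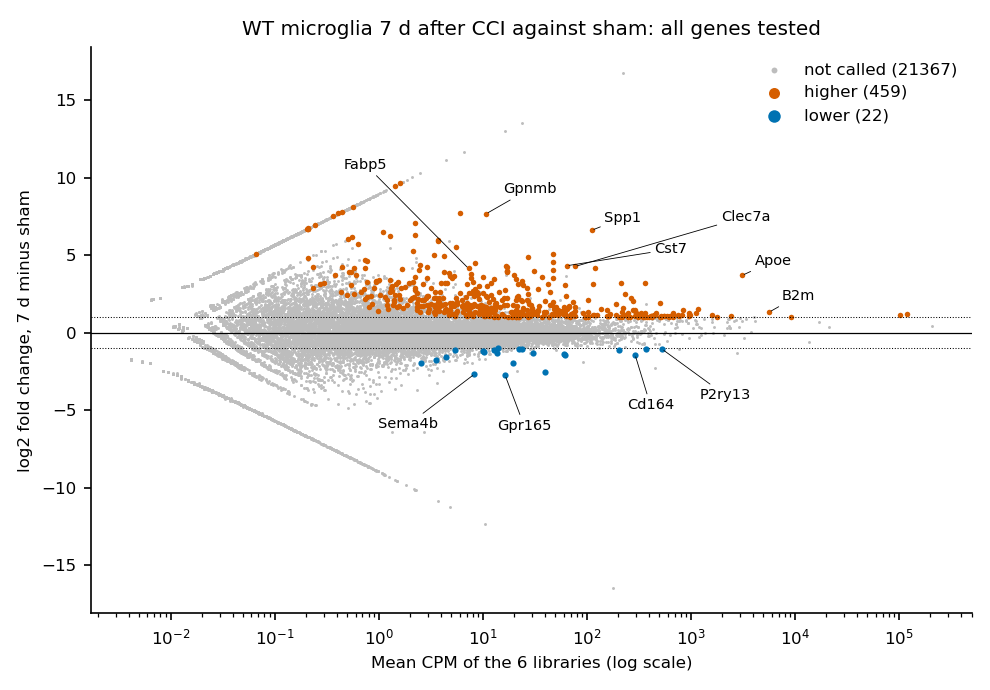
Log2 fold change between 7 d and sham (y axis) against mean CPM of the 6 libraries (x axis, log scale) for each tested gene with a count in them, with higher genes in orange, lower genes in blue and dotted lines at a fold change of 1 and -1. The 459 higher genes spread from low to high expression, the 22 lower genes have smaller changes, down to -2.76, and the outermost lines of points are genes at 0 in a whole group, as are the 15 uncalled genes beyond a change of 10.

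**Figure D2:**
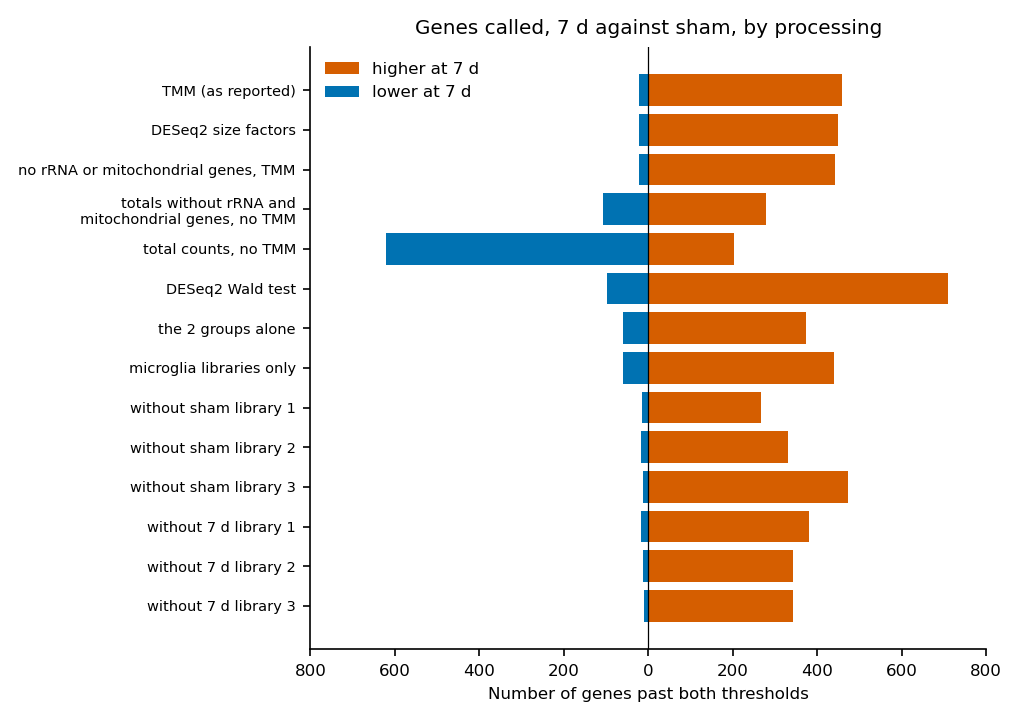
Number of genes past both thresholds (x axis), higher at 7 d to the right and lower to the left, for the reported fit and for other scalings, tools and sets of libraries (y axis). Total counts with no TMM factors gave 204 higher and 622 lower genes, where the reported fit gave 459 and 22.

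Clec7a and Fabp5 had the smallest adjusted p. Clec7a (ENSMUSG00000079293, chromosome 6, 129461591 to 129472779 on GRCm38), the receptor dectin-1, annotated as a polymorphic pseudogene in the release used here, had 3.67, 11.01 and 8.12 CPM in sham controls and 148, 143 and 152 CPM at 7 d. The lowest 7 d library was far above the highest sham library, with a log2 fold change of 4.28 (standard error 0.35, edgeR adjusted p = 2.2e-06). Fabp5 (ENSMUSG00000027533, chromosome 3, 10012548 to 10016607 on GRCm38), a carrier of fatty acids, had 1.05, 0.342 and 0.905 CPM in sham controls and 15.6, 13.7 and 12.3 CPM at 7 d. Its 7 d libraries were close together and far above all 3 sham libraries, for a log2 fold change of 4.15 (standard error 0.34, edgeR adjusted p = 2.2e-06).

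The secreted and lysosomal genes Spp1, Gpnmb and Cst7 were among the 12 higher genes with the smallest adjusted p. Spp1 (ENSMUSG00000029304, chromosome 5, 104435118 to 104441050 on GRCm38), the matrix protein osteopontin, went from 0.861, 1.25 and 4.55 CPM to 196, 337 and 135 CPM, with a log2 fold change of 6.62 (standard error 0.63, edgeR adjusted p = 1.2e-05). Gpnmb, a glycoprotein of lysosomes and the cell surface, had 0.0956, 0.03796 and 0.151 CPM in sham controls, at or near the level of 3 counts, and 17.2, 36.6 and 10.97 CPM at 7 d, giving a log2 fold change of 7.68 (standard error 0.80, edgeR adjusted p = 2.2e-05). In both genes the 7 d libraries differed among themselves more than those of Clec7a, and no library overlapped. Cst7, the cathepsin inhibitor cystatin F, went from 4.97, 4.82 and 8.55 to 145, 97.6 and 127 CPM, for a log2 fold change of 4.33 (standard error 0.43, edgeR adjusted p = 2.2e-05). Lgals3bp, a secreted galectin-binding protein, was already expressed in sham controls at 57.6, 56.9 and 95.9 CPM and had 579.8, 718 and 682 CPM at 7 d, for a log2 fold change of 3.23 (standard error 0.34, edgeR adjusted p = 2.2e-05).

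Growth factor and signaling genes completed these 12. Csf1, a ligand of the receptor on which microglia depend, went from 6.25, 8.69 and 10.5 to 62.4, 64.7 and 53.6 CPM (log2 fold change 2.83, edgeR adjusted p = 2.2e-05). Il2rg, the shared chain of several interleukin receptors, went from 0.765, 3.19 and 2.39 to 31.7, 34.9 and 29.6 CPM (log2 fold change 3.93, edgeR adjusted p = 2.2e-05). Tspo, a protein of the outer mitochondrial membrane used as a target for imaging brain inflammation, had a smaller change from 11.8, 11.9 and 12.6 to 47.1, 35.8 and 47.8 CPM (log2 fold change 1.85, edgeR adjusted p = 2.2e-05), with narrow spread in both groups. The cytoskeletal genes Myo5a, a myosin motor, and Gas2l3, a linker of actin and microtubules, had log2 fold changes of 2.32 and 3.13. C920009B18Rik had one of 2.88. All 12 kept their call with any 1 library left out and in both scalings by total counts. They were picked for the smallest adjusted p in these same libraries, so that this is not separate support.

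Of the 12 higher and 12 lower genes named first by adjusted p, 21 had a promoter in the RefSeq table of GRCm38.p6, and the 250 bases before the start were searched on both strands for 5 motifs, none of which holds another. These were GGAAGT (the core bound by PU.1 and other ETS factors), TGANTCA (AP-1), CACGTG (the E-box), the core of the interferon-stimulated response element (TTTC, any pair of bases, TTTC) and an NF-kB motif (GGGA, any base, TTTCC). Of the 21, 9 held at least 1 of them. Windows around a match are printed for 4 of these genes, 5′ to 3′ in the direction of the gene, with the match in capitals and its position counted from the RefSeq start, to show where such letters lie in genes that rose and in a gene that fell. A match is a description of the sequence and not a site.
Spp1, chr5:104434975-104435030, plus strand, GGAAGT at -111: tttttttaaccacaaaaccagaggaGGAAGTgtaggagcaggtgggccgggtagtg
Cst7, chr2:150570328-150570383, plus strand, GGAAGT at -62: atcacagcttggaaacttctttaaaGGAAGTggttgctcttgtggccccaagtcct
Csf1, chr3:107760589-107760648, minus strand, NF-kB motif at -154: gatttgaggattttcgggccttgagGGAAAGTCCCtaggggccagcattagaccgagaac
Cd164, chr10:41519388-41519443, plus strand, CACGTG at -87: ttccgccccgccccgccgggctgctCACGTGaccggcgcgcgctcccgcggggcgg
GGAAGT was held by 25.8% of all promoters with a sequence, by 29.9% of those of the 459 higher genes and by 31.6% of those of the lower genes. CACGTG was held by 9.06%, 7.83% and 15.8%, TGANTCA by 5.98%, 10.3% and 0.0%, and the NF-kB motif by 0.479%, 0.712% and 0.0%. Only 19 of the lower genes had a promoter with a sequence.

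Among the 22 lower genes, Cd164 (ENSMUSG00000019818, chromosome 10, 41519414 to 41531048 on GRCm38), a sialomucin of the cell surface and endosomes, had the smallest adjusted p. It had 418, 414 and 446 CPM in sham controls and 153, 164 and 158 CPM at 7 d. Both groups were tight and far apart, for a log2 fold change of -1.43 (standard error 0.15, edgeR adjusted p = 2.3e-05). Gpr165, an orphan G protein-coupled receptor, went from 35.2, 25.8 and 25.1 to 3.77, 4.15 and 4.79 CPM, the largest fall among them (log2 fold change -2.76, edgeR adjusted p = 1.7e-04). Sema4b, a semaphorin, went from 13.7, 14.5 and 14.9 to 1.91, 2.36 and 2.43 CPM (log2 fold change -2.68, edgeR adjusted p = 7.8e-04). Prkab1, a subunit of the energy sensor AMPK, had a log2 fold change of -1.301 and Tspan13, a tetraspanin, of -1.42. These 5 genes and Bank1 (-1.93) and Tuba1a (-1.36), an alpha-tubulin, kept their call with any 1 library left out.

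The other 15 lower genes lost it without at least 1 library. They were Lifr, the receptor for leukemia inhibitory factor (-1.08), the transcription factor E2f3 (-1.23), the glycosyltransferase Galnt4 (-1.13), the small GTPase Rhob (-1.12), the calcium sensor Ncs1 (-1.92), the purine receptor P2ry13 (-1.06), the flagellin receptor Tlr5 (-1.31), Tmem119 (-1.07), the inhibitory lectin Siglece (-1.08), Nhsl2 (-1.55), Ndufaf3 (-1.18), Spr (-1.74), Lmo4 (-1.0002), Tmem263 (-1.12) and Bud23 (-2.504). Lifr lost it only without sham library 3. Nhsl2, Tmem119, Siglece, Lmo4 and Tmem263 lost it whichever library was left out. Bud23 lost it without sham library 3 or any 7 d library. It had 16.5, 15.4 and 171 CPM in sham controls and 15.1, 6.34 and 14.3 CPM at 7 d, so that the lowest sham library barely exceeded the highest 7 d library.

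Of 40 homeostatic microglia genes tested, 4 were lower at 7 d and 0 higher, where 0.0924% of all genes were lower, and their median log2 fold change was -0.63 against 0.0 over all genes. The 4 were Gpr165, Rhob, P2ry13 and Tmem119. Under total counts with no TMM factors 17 of the 40 were lower, around a median of -1.18, and under totals without ribosomal RNA and mitochondrial genes 6. Leaving out 1 library gave 1 or 2 lower members. At an unadjusted p under 0.05, 0 of the 40 were higher and 19 lower, and DESeq2 called 0 higher and 8 lower. P2ry13, which binds ADP, had 666, 759.7 and 734 CPM in sham controls and 334, 336 and 362 CPM at 7 d. Tmem119, a microglial surface protein, had 445, 443 and 639 CPM in sham controls and 272, 225 and 229 CPM at 7 d. P2ry12 (ENSMUSG00000036353, chromosome 3, 59216272 to 59262871 on GRCm38), the ADP receptor of resting microglia, had 4021, 3953 and 4021 CPM in sham controls and 1612, 1595 and 1695 CPM at 7 d. Its groups were narrow and far apart, yet its log2 fold change of -1.29 (standard error 0.43, edgeR adjusted p = 0.15) did not pass in the fit of all 21 libraries. In a fit of the compared groups alone it passed, with a log2 fold change of -1.28 and an edgeR adjusted p = 0.0020, and by DESeq2 its adjusted p was 0.030.

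Other identity genes did not pass in the fit of all 21 libraries, whose estimate of spread takes in infiltrating myeloid cells. Over all genes tested, the lower calls were 60 with microglia libraries only and 59 with the compared groups alone, against 22. Cx3cr1, the fractalkine receptor, had 405, 781 and 903 CPM in sham controls and 469.8, 499.6 and 497 CPM at 7 d, and the wide sham range held all 7 d libraries (log2 fold change -0.51, edgeR adjusted p = 0.47). Mertk, a receptor for dying cells, had 149.8, 149.7 and 178 CPM and 137, 126 and 125 CPM (log2 fold change -0.301, edgeR adjusted p = 0.50). Sall1, a transcription factor of microglial identity, had 205, 214 and 213 CPM and 131, 128 and 136 CPM (log2 fold change -0.67, edgeR adjusted p = 0.37). Its groups, like those of Mertk, did not overlap. The myeloid factor Spi1 (PU.1) had a log2 fold change of 0.103.

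Disease-associated microglia genes had a higher summed level in every 7 d library than in any sham library. Of 41 tested, 26 were higher (63.4%) and 0 lower, where 1.93% of all genes tested were higher and 0.0924% lower. The list's median log2 fold change was 1.58, and all 41 had a log2 fold change above 0. Their summed level was 9059, 10373 and 13275 CPM in sham controls and 29435, 27544 and 27792 CPM at 7 d. Of the 26, 19 kept their call with any 1 library left out and 17 in both scalings by total counts. Without sham library 1 the list had 19 higher members.

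Apoe (ENSMUSG00000002985, chromosome 7, 19696109 to 19699188 on GRCm38), the apolipoprotein that carries cholesterol between brain cells, had 108, 476 and 753 CPM in sham controls and 5543, 6177 and 5736 CPM at 7 d. The sham libraries varied widely but stayed far below the 7 d libraries, which put Apoe among the most abundant changed transcripts (log2 fold change 3.71, edgeR adjusted p = 0.0016). Axl, a receptor tyrosine kinase for dying cells, had 1.18, 3.11 and 6.66 CPM in sham controls and 49.6, 60.96 and 63.8 CPM at 7 d (log2 fold change 3.98, edgeR adjusted p = 2.3e-04). Itgax, the integrin chain CD11c, had 1.12, 1.86 and 3.02 CPM and 18.3, 13.2 and 17.6 CPM (log2 fold change 3.02, edgeR adjusted p = 1.1e-04). Igf1, insulin-like growth factor 1, had 1.24, 9.72 and 14.4 CPM and 51.7, 126 and 51.2 CPM (log2 fold change 3.17, edgeR adjusted p = 0.0081), with spread over several-fold in both groups. The lipase Lpl and the oxysterol-producing enzyme Ch25h had log2 fold changes of 4.07 and 5.51. Trem2, the lipid-sensing receptor known to act upstream of many of these genes, had 259, 323 and 360.4 CPM in sham controls and 429, 276 and 332 CPM at 7 d, with overlapping groups and a log2 fold change of 0.14 (edgeR adjusted p = 0.97).

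Of 38 genes for lipid uptake, storage and efflux, 10 were higher (26.3%, against 1.93% of all genes) and 0 lower, with a median of 0.94. Besides Apoe, Fabp5, Lpl and Ch25h they included Apoc2, an activator of lipoprotein lipase, with 0.159, 0.418 and 1.46 CPM in sham controls and 26.2, 16.3 and 6.22 CPM at 7 d (log2 fold change 4.51, edgeR adjusted p = 0.0045), and Olr1, a scavenger receptor for oxidized lipoprotein (2.46). Abca1, which exports cholesterol, had a log2 fold change of 0.93 (edgeR adjusted p = 0.083), and the lipid droplet coat gene Plin2 one of 1.55 (edgeR adjusted p = 0.085). Of 27 genes for cholesterol and fatty acid synthesis 0 passed by edgeR and 0 by DESeq2, around a median of 0.14, with 2 higher and 1 lower at an unadjusted p under 0.05. Without sham library 1 the lipid handling list had 6 higher members. Of 29 phagocytic receptors and bridging molecules 6 were higher (20.7%), among them Clec7a, Axl and Cd300lf (2.69), and of 49 lysosomal genes 3 were (6.12%). Leaving out 1 library gave between 1 higher lysosomal gene, without 7 d library 1 or sham library 1 or 2, and 8, without sham library 3. The lysosomal members Cd63 (1.44), Ctsl (1.05) and Ctsb (1.15) were lost under total counts, where the list median turned to -0.16 from 0.39 around a median of all genes of -0.47. The abundant protease Ctsd had 1326, 1356 and 2422 CPM in sham controls and 3025, 2674 and 2679.5 CPM at 7 d (log2 fold change 0.72, edgeR adjusted p = 0.097).

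**Figure D3:**
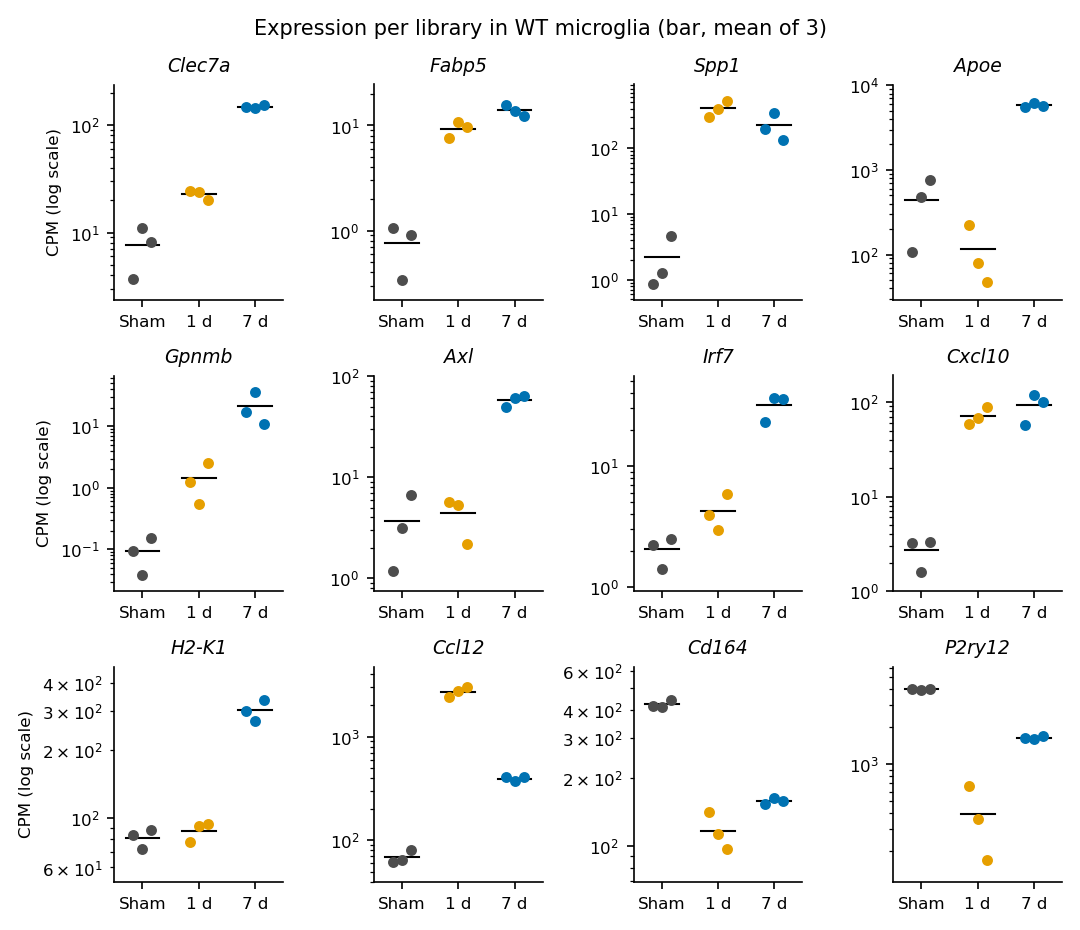
CPM per library (y axis, log scale with its own range per gene) of 12 genes in microglia from sham controls and from WT mice at 1 d and 7 d after CCI, each point a library and each bar a mean of 3. Clec7a, Apoe, Axl, Irf7 and H2-K1 are highest at 7 d, Ccl12 is highest at 1 d, and P2ry12 at 7 d lies between 1 d and sham.

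Known genes were grouped into 28 lists by function, and 160 of the 459 higher genes were in at least 1 list. The 25 lists with 0 lower members held 708 genes, of which 158 were higher. Within these lists, grouped because none of their members was called lower, 354 of the 708 were higher and 19 lower at an unadjusted p under 0.05. Of all 23815 genes 1926 and 857 were, and within the lists DESeq2 called 186 higher and 2 lower. The grouping itself keeps lower members few, so the counts are given side by side only. Interferon-stimulated genes had the highest median of these lists. Of 46 tested, 30 were higher (65.2%, against 1.93% of all genes) and 0 lower, with a median log2 fold change of 2.32, and 43 lay above 0. Their summed level was 484, 507 and 744 CPM in sham controls and 2493, 3098 and 3038 CPM at 7 d. Under total counts 25 members stayed higher and under totals without ribosomal RNA and mitochondrial genes 27, and leaving out 1 library gave between 22, without sham library 1, and 29.

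Irf7 (ENSMUSG00000025498, chromosome 7, 141262706 to 141266481 on GRCm38), the transcription factor that amplifies the interferon response, had 2.23, 1.405 and 2.49 CPM in sham controls and 23.1, 36.6 and 36.1 CPM at 7 d. All 7 d libraries lay far above sham, giving a log2 fold change of 3.96 (standard error 0.54, edgeR adjusted p = 3.3e-04). Ifi27l2a, a small mitochondrial interferon-induced protein, had 5.64, 11.8 and 19.98 CPM and 221, 232 and 231 CPM (log2 fold change 4.19, edgeR adjusted p = 1.5e-04), and its 7 d libraries were nearly equal. Cxcl10, a chemokine for T cells, had 3.22, 1.59 and 3.29 CPM and 56.6, 119 and 101 CPM (log2 fold change 5.08, edgeR adjusted p = 7.2e-04). Bst2, the virus tether tetherin, started higher, with 28.02, 24.2 and 36.7 CPM and 116, 124 and 117 CPM (log2 fold change 2.01, edgeR adjusted p = 6.0e-04). The nucleic acid sensor Zbp1, Slfn5, the ubiquitin-like modifier Isg15 and the antiviral gene Ifit3 had log2 fold changes of 4.22, 3.44, 3.14 and 3.36. Ifit3 has a near copy in Ifit3b with the same promoter letters, so that the division of reads between them is uncertain.

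The core of the interferon-stimulated response element, which reads GAAA, any pair of bases, GAAA on the other strand, was held by 3.39% of all promoters with a sequence and by 13.9% of those of the higher genes (39 of 281). Among interferon-stimulated genes 19 of 35 held it (54.3%), and among the members higher at 7 d 13 of 21 (61.9%). Windows from 6 of these genes show how the letters are placed, with matches in capitals and positions counted from the RefSeq start. These genes were picked after their values were seen.
Slfn5, chr11:82951922-82951981, plus strand, 1 match from -155: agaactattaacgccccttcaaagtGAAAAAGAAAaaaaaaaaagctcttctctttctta
Bst2, chr8:71537562-71537627, minus strand, 2 matches from -130: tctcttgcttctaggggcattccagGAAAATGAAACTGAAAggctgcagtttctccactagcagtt
Cxcl10, chr5:92349068-92349127, minus strand, 1 match from -213: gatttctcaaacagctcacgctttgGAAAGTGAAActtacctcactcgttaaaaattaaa
Oas1a, chr5:120907526-120907570, minus strand, 2 matches from -20: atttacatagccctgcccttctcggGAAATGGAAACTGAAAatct
Ifit3, chr19:34583348-34583441, plus strand, 2 matches from -156: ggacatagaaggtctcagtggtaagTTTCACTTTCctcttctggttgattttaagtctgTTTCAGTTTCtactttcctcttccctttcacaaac
Rsad2, chr12:26456538-26456597, minus strand, 1 match from -120: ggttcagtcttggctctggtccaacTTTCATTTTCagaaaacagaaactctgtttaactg
In Bst2 and Oas1a a pair of matches overlap, and in Ifit3 the pair lies apart, at -156 and -122.

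MHC class I presentation displays peptides made inside the cell. Of 21 genes in its list, 11 were higher (52.4%, against 1.93% of all genes) and 0 lower, around a median of 1.03. H2-K1 (ENSMUSG00000061232, chromosome 17, 33996017 to 34000347 on GRCm38), a classical class I heavy chain, had 84.2, 72.3 and 88.3 CPM in sham controls and 298, 271 and 336 CPM at 7 d (log2 fold change 1.89, edgeR adjusted p = 7.5e-05). H2-D1 had 86.1, 94.9 and 141 CPM and 418, 411 and 504 CPM (log2 fold change 2.05, edgeR adjusted p = 7.5e-05), and B2m, the shared light chain and among the most abundant transcripts, had 3000.2, 3136 and 3554 CPM and 8449.6, 7713 and 8298 CPM (log2 fold change 1.34, edgeR adjusted p = 0.0023). No library overlapped in these 3 genes. The nonclassical genes H2-Q4, H2-Q6 and H2-Q7 had log2 fold changes of 2.42, 3.25 and 3.71, and these close paralogs can share reads. Under total counts 5 class I genes stayed higher, with B2m lost, under totals without ribosomal RNA and mitochondrial genes 6, and without sham library 1 or 2 or 7 d library 1 or 3 there were 7. Of 12 class II genes 0 passed by edgeR and 0 by DESeq2, around a median of 0.52, and 2 were higher at an unadjusted p under 0.05. Cd74, the class II invariant chain, had 36.8, 74.9 and 89.2 CPM in sham controls and 93.3, 153 and 109.8 CPM at 7 d (log2 fold change 0.83, edgeR adjusted p = 0.28).

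Of 21 chemokines 9 were higher (42.9%, against 1.93% of all genes) and 0 lower, with a median of 2.22. All 9 stayed higher in both scalings by total counts, while 7 were called without sham library 1. Ccl12 had 61.99, 63.9 and 80.4 CPM in sham controls and 408, 369.8 and 405 CPM at 7 d (log2 fold change 2.52, edgeR adjusted p = 3.4e-04). Ccl3 had 21.9, 22.3 and 25.99 CPM and 252, 189 and 184 CPM (log2 fold change 3.15, edgeR adjusted p = 2.4e-04), and Ccl5 2.04, 6.83 and 2.74 CPM and 82.2, 89.6 and 101 CPM (log2 fold change 4.56, edgeR adjusted p = 8.6e-05). Ccl4, Ccl2 and Cxcl16 had log2 fold changes of 3.07, 2.22 and 1.76. Of 25 cytokine genes 5 were higher, among them Tnf, with 4.62, 1.78 and 1.06 CPM in sham controls and 9.22, 22.03 and 14.4 CPM at 7 d (log2 fold change 2.62, edgeR adjusted p = 0.0039), and Il1rn, the antagonist of interleukin-1 (2.09), whose call was lost without sham library 1 or 2 or any 7 d library. Il1b had 6.598, 6.79 and 18.2 CPM and 35.8, 15.4 and 16.1 CPM, with overlapping groups (log2 fold change 1.09, edgeR adjusted p = 0.45), and Il6 2.42, 4.86 and 2.09 CPM and 1.15, 3.13 and 1.82 CPM (log2 fold change -0.62, edgeR adjusted p = 0.88). Saa3, an acute phase protein, had 0.159, 0 and 0 CPM in sham controls and 27.8, 6.83 and 1.47 CPM at 7 d (log2 fold change 7.75, edgeR adjusted p = 0.011), and it lost its call without sham library 2 or 3. Of 31 genes of the Toll-like receptor and NF-kB pathway Tlr2 was higher (1.39) and Tlr5 lower. Each is 3.23% of the list, where 1.93% of all genes were higher and 0.0924% lower.

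Complement, Fc receptor and costimulatory genes changed in a few members, with 15.8%, 15.4% and 17.6% higher, against 1.93% of all genes. Of 19 complement genes 3 were higher, among them Cfb, factor B of the alternative pathway, with 0.255, 0 and 0.0754 CPM in sham controls and 5.35, 9.71 and 6.92 CPM at 7 d (log2 fold change 5.98, edgeR adjusted p = 0.0023), and C4b (2.75), which kept its call in 1 of the 6 fits that left out a library. Without sham library 3 the list had 5 higher members, and with any other single library left out 2. C1qa, already abundant, had 1246, 1370.2 and 1765 CPM and 2039, 1768 and 1876 CPM (log2 fold change 0.38, edgeR adjusted p = 0.59), and C3 had a log2 fold change of 2.46 (edgeR adjusted p = 0.12). Of 13 genes of Fc receptors and their signaling, Fcgr4 had 4.05, 6.38 and 11.04 CPM and 40.9, 33.2 and 37.02 CPM (log2 fold change 2.37, edgeR adjusted p = 1.0e-03) and the kinase Fgr had 0.574, 1.02 and 1.46 CPM and 14.8, 15.3 and 13.1 CPM (log2 fold change 3.801, edgeR adjusted p = 2.3e-05). The checkpoint ligand Cd274 (PD-L1) rose by 1.81, Cd83 by 1.63 and the inhibitory receptor Cd72 by 3.97 on the log2 scale, and these were the 3 higher genes of 17 in their list. Cd86 had a log2 fold change of 0.28.

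Of 32 genes for growth factors and tissue repair 7 were higher (21.9%, against 1.93% of all genes), among them Spp1, Gpnmb, Igf1 and Lgals3. Pdgfa (1.11) lost its call without sham library 1 or 2 or any 7 d library. Without sham library 3 the list had 10 higher members, and with any other single library left out 4. Of 34 genes for matrix and proteases 7 were higher (20.6%). Fibronectin (Fn1) had 0.637, 1.29 and 4.35 CPM in sham controls and 24.04, 16.3 and 4.64 CPM at 7 d (log2 fold change 2.81, edgeR adjusted p = 0.0078), where the lowest 7 d library barely exceeded the highest sham library. The collagen cross-linking enzyme Lox had 0.0319, 0.1898 and 0.101 CPM and 4.92, 3.21 and 4.48 CPM (log2 fold change 5.27, edgeR adjusted p = 0.013). Each of these 7 lost its call without at least 1 library, and 6 of them lost it without sham library 1. The list then had 2 higher members, and 4 without sham library 2 or 7 d library 2.

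Of 34 genes for oxidative stress and antioxidant defence 6 were higher (17.6%, against 1.93% of all genes) and 0 lower, around a median of 0.48. Cybb (ENSMUSG00000015340, chromosome X, 9435252 to 9487771 on GRCm38), the catalytic subunit of the phagocyte NADPH oxidase, had 2.68, 4.82 and 9.63 CPM in sham controls and 16.1, 25.03 and 20.98 CPM at 7 d (log2 fold change 1.85, edgeR adjusted p = 0.0030). Xdh, xanthine dehydrogenase, had 0.0956, 0.152 and 0.905 CPM and 4.06, 3.66 and 4.096 CPM (log2 fold change 3.27, edgeR adjusted p = 0.0019), and Gpx1, a glutathione peroxidase, 182, 220.4 and 199 CPM and 492, 363 and 433 CPM (log2 fold change 1.098, edgeR adjusted p = 5.2e-04). Hmox1 (ENSMUSG00000005413, chromosome 8, 75093621 to 75100589 on GRCm38), which breaks down heme, had 12.1, 13.2 and 17.8 CPM and 34.8, 25.2 and 36.7 CPM (log2 fold change 1.17, edgeR adjusted p = 0.029), without overlap. Gpx1 and Hmox1 were not called in either scaling by total counts, and Hmox1 was called in 2 of the 6 fits that left out a library. Ptgs2 (ENSMUSG00000032487, chromosome 1, 150100031 to 150108227 on GRCm38), the inducible cyclooxygenase, had 0.0956, 0.152 and 0.302 CPM and 0.908, 0.569 and 0.773 CPM and did not pass (log2 fold change 1.94, edgeR adjusted p = 0.100). Of 23 genes for iron and heme handling, Hmox1 and the ferritin chains Ftl1 (1.55) and Fth1 (1.2997) were higher, and the exporter Slc40a1 had a log2 fold change of -0.701 (edgeR adjusted p = 0.41). Ftl1 kept its call whichever library was left out, while Fth1 lost it without 7 d library 1 or sham library 1 or 2 and under total counts. The list had 1 higher member without each of these 3 libraries in turn and 4 without sham library 3.

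Of 23 genes for glycolysis and hypoxia Ldha was higher, with 38.7, 33.9 and 50.5 CPM in sham controls and 90.8, 85.7 and 80.5 CPM at 7 d (log2 fold change 1.06, edgeR adjusted p = 0.012), and Pkm had a log2 fold change of 1.07 (edgeR adjusted p = 0.074). Ldha lost its call without 7 d library 1 or sham library 1 or 2. Of 54 nuclear subunits of oxidative phosphorylation Cox4i1 (1.09) and Uqcrh (1.03) were higher. Both lost their call without 7 d library 1, without sham library 3 and in both scalings by total counts. The shares called higher, 4.35% of the glycolysis genes and 3.7% of the subunits, lay near the 1.93% of all genes. Of 51 genes for the cell cycle and DNA replication 3 were higher (5.88%), Mcm10, E2f1 and Mcm2, around a median of 1.31, and 48 lay above 0. Without sham library 3 the list had 5 higher members. At an unadjusted p under 0.05, 12 of the 23 glycolysis genes, 23 of the 54 subunits and 22 of the 51 cell cycle genes were higher and 1, 0 and 0 lower, and DESeq2 called 3, 2 and 8 higher and 0 lower in each. Mcm10, a replication initiation factor, had 0.0319, 0 and 0.0251 CPM and 1.19, 1.14 and 1.43 CPM (log2 fold change 5.697, edgeR adjusted p = 0.0019), and the proliferation markers Mki67 and Top2a had log2 fold changes of 1.77 and 1.91 (edgeR adjusted p = 0.090 and 0.12). Cdkn1a, the p53 target that arrests the cycle, had 37.8, 33.3 and 45.4 CPM and 159, 178 and 158 CPM (log2 fold change 2.09, edgeR adjusted p = 0.0026).

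Cytosolic ribosomal proteins were the list with the most higher members, and their calls depended on the scaling. Of 79 tested, 40 were higher (50.6%, against 1.93% of all genes) and 0 lower around a median of 1.005, and all 79 had a log2 fold change above 0. Rpl41, the shortest of them, had 447, 482 and 436 CPM in sham controls and 1341, 1134 and 1262 CPM at 7 d (log2 fold change 1.45, edgeR adjusted p = 2.2e-04), and Rpl15 had 195, 201 and 200.2 CPM and 496, 446 and 469 CPM (log2 fold change 1.24, edgeR adjusted p = 3.4e-04). Under total counts 1 of the 79 was higher, around a median of 0.45, and under totals without ribosomal RNA and mitochondrial genes 6, around 0.74. Leaving out 1 library gave between 24, without sham library 1, and 51, with 25 without 7 d library 1. Of the 87 higher pseudogenes, 29 are named for ribosomal proteins, and their reads cannot be told apart from those of the parent genes with certainty. The 5 called genes of the mitochondrial chromosome, which include the ribosomal RNAs mt-Rnr1 (1.13) and mt-Rnr2 (1.18), were not called with total counts and no TMM factors, and mt-Rnr1 lost its call whichever library was left out. The share of ribosomal RNA and of mitochondrial reads moves with the same groups, and its part in these results was not tested.

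**Figure D4:**
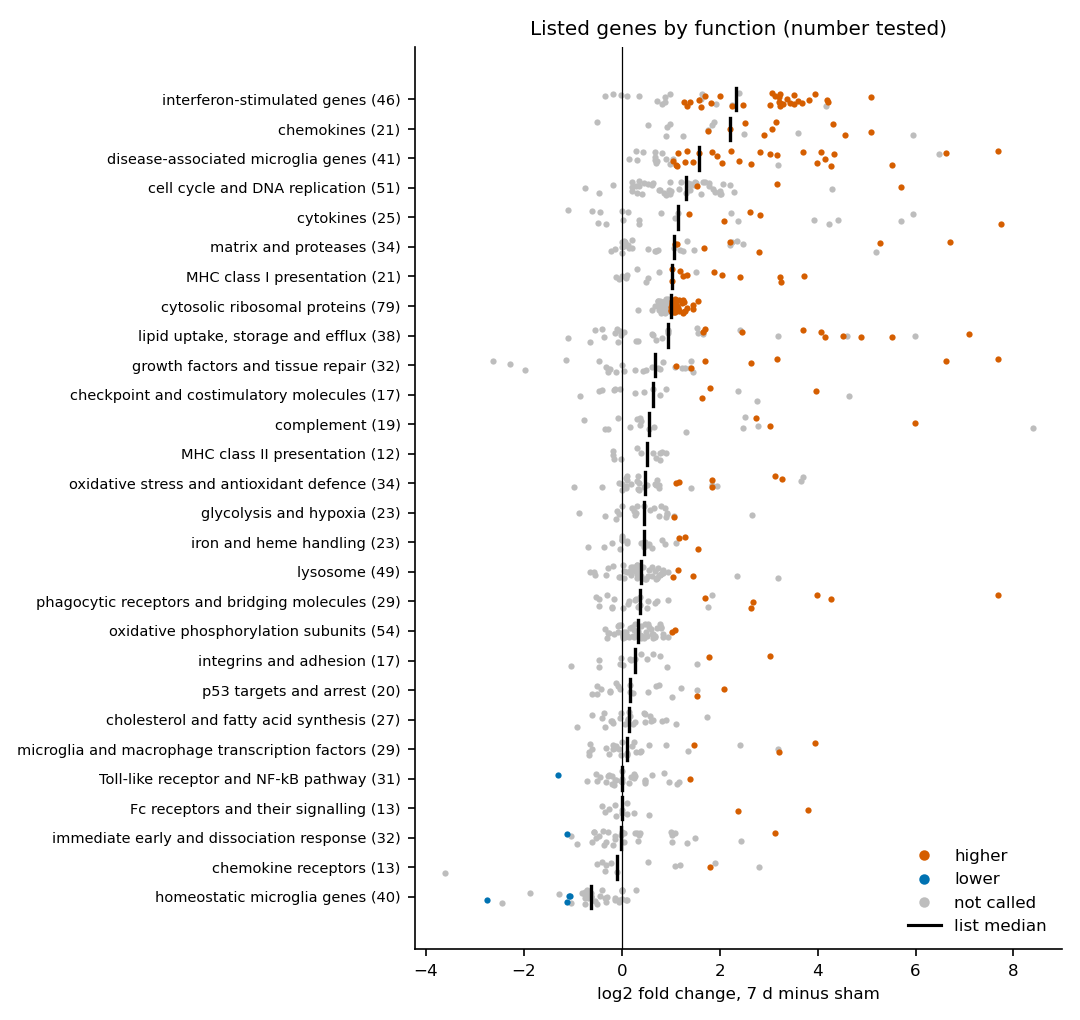
Log2 fold change between 7 d and sham (x axis) of each tested gene in the 28 function lists (y axis, ordered by median, with the number tested), with higher genes in orange, lower genes in blue, others in gray and the list median as a black line. Interferon-stimulated genes have the highest median, 2.32, homeostatic microglia genes the lowest, -0.63, and ribosomal proteins lie close together around 1.005.

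Markers of other cell types were low but moved in some libraries. Neutrophil markers summed to 162, 253 and 864 CPM in sham controls and to 908, 312 and 266 CPM at 7 d, with 0 of 18 called by edgeR or DESeq2 and 1 at an unadjusted p under 0.05. S100a9 alone had 0.765, 40.4 and 264 and 324, 37.5 and 22.1 CPM. Monocyte markers summed to 11.5, 11.4 and 67.1 CPM and 74.2, 42.5 and 35.8 CPM, with 0 of 17 called by edgeR, 1 by DESeq2 and 3 at an unadjusted p under 0.05. Ccr2 had 4.05, 3.83 and 8.27 and 10.7, 11.8 and 12.2 CPM. Without sham library 3 and 7 d library 1 together, the libraries highest in neutrophil markers, 471 genes were called, 456 higher and 15 lower, of which 354 were among the 481. Border-associated macrophage markers summed to 150.4, 242 and 442 CPM in sham controls and 377, 444 and 465 CPM at 7 d, and 1 of 12, Folr2 (2.58), was higher and kept its call in 2 of the 6 fits that left out a library. Mrc1, a defining marker of these cells, had 2.07, 30.6 and 77.96 and 33.1, 56.8 and 65.6 CPM and Pf4 1.498, 50.7 and 76.7 and 57.5, 100.3 and 87.03 CPM, so that sham library 1 was low in both.

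Oligodendrocyte markers summed to 25.4, 32.99 and 29.7 CPM in sham controls and 58.01, 84.4 and 52.2 CPM at 7 d, without overlap. Of the 11, 10 had a log2 fold change above 0, around a median of 1.90. DESeq2 called 5 higher and 0 lower, and 5 were higher and 0 lower at an unadjusted p under 0.05. By edgeR the myelin genes Mbp (1.44) and Mobp (3.02) were the 2 that passed, and both lost their call without sham library 1 or 7 d library 2. The astrocyte gene Gfap rose from 0.127, 0.0759 and 0.0251 CPM to 1.77, 1.06 and 1.43 CPM, as 1 of 11 in its list, and lost its call without sham library 2 or 3. That list summed to 54.7, 51.7 and 61.1 CPM and 40.6, 37.6 and 39.4 CPM. Cspg4, of the oligodendrocyte precursor list, had 0 counts in each sham library and was at least 4.34-fold higher, taking 3 length-scaled counts per sham library as a nominal limit. Cspg4 and Klrk1, of the T and NK cell list, each lost their call without several of the libraries. Klrk1 had 0.143, 0.244 and 0.966 CPM at 7 d, and Cd3e, which defines T cells, had 0, 0.122 and 0.0386 CPM. Of 64 marker genes of B cells, dendritic cells, neurons, endothelial cells, mural cells and red blood cells 0 were called by edgeR, 1 was higher and 2 lower by DESeq2, and 4 were higher and 4 lower at an unadjusted p under 0.05. These lists were pooled because edgeR called none of their members, so that the 0 follows from the grouping. The part of these cells in the gene groups above was not tested.

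Immediate early genes, which also respond to tissue dissociation, summed to 2648, 1044 and 1437 CPM in sham controls and 1586, 1771 and 1594 CPM at 7 d. Sham library 1 stood above the rest. Fos had 98.5, 4.71 and 8.95 CPM in sham controls and 24.8, 36.9 and 24.8 CPM at 7 d, and Egr1 359, 20.9 and 17.1 CPM and 61.8, 115 and 91.4 CPM. Of 32 such genes Gadd45b was higher (3.12) and Rhob lower. Each is 3.12% of the list, where 1.93% of all genes were higher and 0.0924% lower. Without sham library 1, 4 were higher, with Egr1 turning from -0.57 to a called log2 fold change of 2.24.

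**Figure D5:**
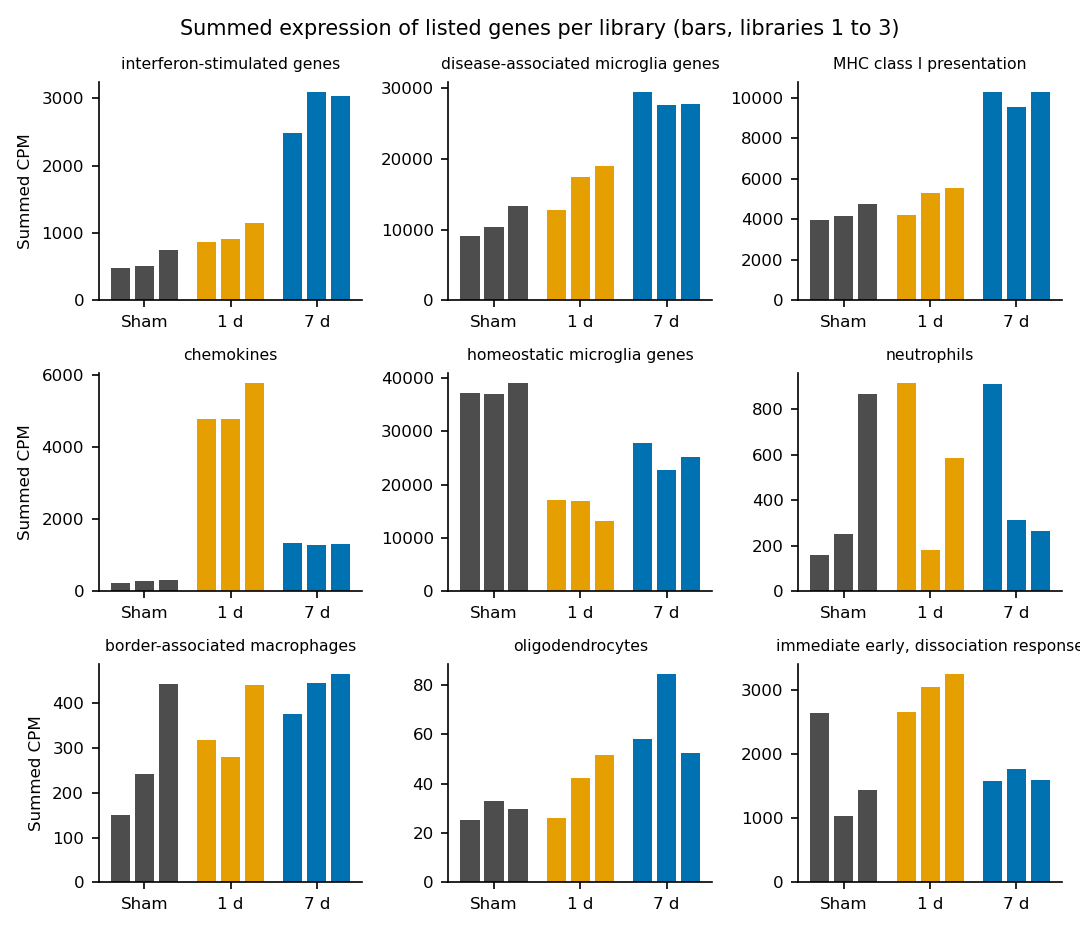
Summed CPM of the genes in 9 lists (y axis, starting at 0, own range per panel), 1 bar per library, for microglia from sham controls and from WT mice at 1 d and 7 d. Interferon-stimulated and MHC class I genes are highest in the 3 libraries at 7 d, chemokines at 1 d and homeostatic genes in sham controls, while neutrophil markers and immediate early genes vary within groups.

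To see which levels differed between times after injury, microglia at 7 d were compared directly with microglia from WT mice 1 d after the same injury, of which the series has 3 libraries, in the same fit. Here 1682 genes differed (7.06% of those tested), 638 higher at 7 d (2.68%) and 1044 lower (4.38%), while 2453 (10.3%) had an adjusted p under 0.05 by edgeR with no bar on fold. The count of 1682 without 1 d library 1, 2 or 3 was 2119, 1274 or 1186. These libraries had TMM factors of 1.11, 0.752 and 0.741, and 50.6, 57.9 and 58.5% ribosomal RNA. Mitochondrial genes took 33.6, 39.1 and 41.3% of their counts. Their monocyte markers summed to 189, 38.3 and 105 CPM and their neutrophil markers to 914, 180 and 586 CPM. The part of these differences in the genes called between times was not tested. With total counts and no TMM factors 609 genes were higher and 639 lower, around a median of 0.15, and without 1 d library 2 or 3 the higher genes were 330 or 301. Interferon-stimulated genes were higher at 7 d in 31 of 46, around a median of 1.89, and MHC class I genes were higher in 11 of 21 and lower in 2. Irf7 had 3.97, 2.97 and 5.85 CPM at 1 d and a log2 fold change from 1 d to 7 d of 2.905 (edgeR adjusted p = 8.5e-04), and H2-K1 had 77.9, 91.6 and 93.5 CPM at 1 d and one of 1.78 (edgeR adjusted p = 4.3e-05). At 1 d both lay closer to sham than to 7 d. Cxcl10 was an exception, at 58.3, 67.7 and 88.6 CPM at 1 d, with a log2 difference of 0.37 (edgeR adjusted p = 0.83).

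Disease-associated genes differed among themselves between 1 d and 7 d. Of the 41 tested, 13 were higher and 4 lower at 7 d, where 2.68% and 4.38% of all genes were. Apoe had 221, 78.5 and 47.6 CPM at 1 d, and its log2 fold change from 1 d to 7 d was 5.65 (edgeR adjusted p = 2.6e-05), larger than that from sham. Axl (3.72), Igf1 (4.28), Gpnmb (3.904), Clec7a (2.69) and Itgax (2.15) were also higher at 7 d than at 1 d. Lpl (-2.03), Lgals3 (-2.27) and Ch25h (-2.33) were higher than sham at 7 d but lower than at 1 d. Spp1 had 301, 398 and 519.9 CPM at 1 d and did not pass between times (-0.87, edgeR adjusted p = 0.32).

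Chemokine, oxidative stress, metabolic and cell cycle genes that differed were mostly lower at 7 d than at 1 d. Over all genes tested 4.38% were lower and 2.68% higher. Of 21 chemokines 9 were lower and 1 higher, and Ccl12, with 2388, 2749 and 3004 CPM at 1 d, changed by -2.78 on the log2 scale (edgeR adjusted p = 4.5e-05). Ptgs2 had 27.6, 32.2 and 48.5 CPM at 1 d (-5.59, edgeR adjusted p = 5.0e-06) and Hmox1 103, 78.7 and 169 CPM (-1.86, edgeR adjusted p = 2.7e-04). Of 34 oxidative stress genes 12 were lower and 1 higher, of 23 glycolysis genes 11 were lower, of 54 oxidative phosphorylation subunits 20, and of 51 cell cycle genes 19. Homeostatic microglia genes were higher at 7 d in 13 of 40, around a median of 0.72. P2ry12 had 659, 357 and 169 CPM at 1 d, and its 7 d level was higher than that and lower than every sham library (2.05 from 1 d, edgeR adjusted p = 0.0038). Mertk had 74.1, 60.6 and 49.98 CPM at 1 d (1.07, edgeR adjusted p = 2.9e-04). Cd164 and Gpr165 did not pass between times (edgeR adjusted p = 0.069 and 0.25), at 141, 112 and 96.4 and 2.98, 2.86 and 2.03 CPM at 1 d.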

How the data were processed

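RNA-seq was done by the study on sorted microglia, with paired-end reads from a NuGEN low input kit. The deposited values are expected counts per gene, which the authors made with the nf-core/rnaseq pipeline (Salmon) on GRCm38. They are scaled so that gene length is divided out within a library, and replicates were not pooled after sequencing. They were rounded to whole numbers here. Submitters' notes name R 4.2.0 and DESeq2 1.36.0.

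Genes with at least 5 counts over all 21 libraries were fitted with edgeR 4.0.16 (R 4.3.3), with TMM factors, 1 mean per group and the quasi-likelihood test, so that all groups share the estimate of spread. A gene was called at an absolute log2 fold change above 1 and a Benjamini-Hochberg adjusted p under 0.05. The standard error is the log2 fold change divided by the square root of F. DESeq2 1.42.0 was an alternative. The scalings without TMM factors, and the joint removal of sham library 3 and 7 d library 1, were chosen after seeing the data. Of 45706 gene IDs 45143 matched the GENCODE M21 annotation. The fit was tested on simulated data. Each library is a pool of 2 brains, and p-values measure the spread between such pools.

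The members, gene lists and rules were chosen with earlier results of these data known. Named were the 12 called genes per direction with the smallest adjusted p whose groups do not overlap, up to 6 called genes per list with set anchors, all lower genes, the 8 called genes with the highest CPM, and Hmox1, Ptgs2, Ccl3, P2ry12, Tmem119 and Mertk. Promoters came from RefSeq (GRCm38.p6), in which 13352 of 23800 gene symbols tested had a sequence.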

Additional observations from a re-analysis of the deposited data

Results flagged for a closer look

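Of the 24 genes with the smallest adjusted p between 7 d and sham, 12 in each direction, 10 also differed between 7 d and 1 d in WT microglia in the same fit (edgeR adjusted p under 0.05 over all genes, with no bar on fold), a rule that 10.3% of all genes passed. Both comparisons use the same 7 d libraries, and the 24 were chosen by their p in the first of them, so that the 2 shares are given side by side only. Higher at 7 d than at 1 d, on the log2 scale, were Gpnmb by 3.90, Clec7a by 2.69, Lgals3bp by 2.19, Cst7 by 1.72, Gas2l3 by 1.03 and Myo5a by 0.71. Lower were Tspo, with a log2 difference of -0.93, Lifr with -0.79, Ncs1 with -1.73 and Tuba1a with -1.69. At 1 d Tspo had 69.1, 77.4 and 102 CPM, above every library at 7 d and in sham controls. Tuba1a, Lifr and Ncs1, lower than sham at 7 d, had 85.2, 132 and 109, 23.1, 26.7 and 24.4 and 2.86, 3.799 and 4.06 CPM at 1 d. The edgeR adjusted p of these 10 ran from 3.4e-05 for Clec7a to 0.032 for Myo5a.

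Of the 24, Fabp5 differed at 7 d between WT microglia and Fgg390-396A microglia, from mice with an altered fibrinogen gamma chain and the same injury, by 1.86 on the log2 scale (edgeR adjusted p = 0.015), and the other 23 did not pass at 0.05, a rule that 0.0378% of all genes passed. Fabp5 lies on chromosome 3, as Fgg does, and whether the difference goes with linked DNA was not tested.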

How the results depend on the processing

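Of 126 named genes called between 7 d and sham, 53 kept their call in all 17 alternatives that refitted the model at the same thresholds. The count of 481 genes (459 higher, 22 lower) became 807 (710 and 97) with the DESeq2 Wald test, 826 (204 and 622) with total counts and no TMM factors, 191 (188 and 3) above a log2 fold change of 2 and 289 (281 and 8) at an adjusted p under 0.01. Leaving out 1 library gave 283 to 486 genes, 268 to 473 higher and 11 to 17 lower. The higher genes were 279 and the lower 106 with totals that left out ribosomal RNA and mitochondrial genes. The lower genes were 59 with the compared groups alone, 60 with microglia libraries only and 63 with no bar on fold. DESeq2 size factors, TMM without ribosomal RNA and mitochondrial genes, edgeR's filterByExpr and no filter on counts gave 464 to 539 genes.

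Between 7 d and 1 d, the 1682 genes (638 higher, 1044 lower) became 432 (227 and 205) above a log2 fold change of 2 and 1113 at an adjusted p under 0.01, with 343 higher. Higher genes were 1278 with DESeq2 and 1035 with microglia libraries only, and lower genes 639 with total counts and 1571 with no bar on fold. Leaving out 1 library gave 1186 to 2119 genes, 301 to 904 higher and 853 to 1215 lower. The cause of these shifts was not tested.

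Egr1, with a log2 fold change of -0.57, ranged from -1.09 without sham library 3 to 2.24 without sham library 1. In a fit that blocked on replicate number (replicate block), 495 genes were called against sham, 461 of them among the 481, and 1732 against 1 d, and P2ry12 passed with an edgeR adjusted p = 0.046. The same-numbered libraries of 7 d and sham correlated at 0.094, 0.031 and -0.043 in their deviations from the group means, so that the numbers were not taken to pair the samples. With 3 libraries per group, simulated 4-fold changes were recovered in 59.5% of genes by edgeR, with 3 other calls and 0 calls when no gene was changed, and in 77% by DESeq2, with 51 and 21. The simulation changed 200 genes above 1 CPM, evenly up and down, with no shift in ribosomal RNA or mitochondrial reads between groups. It therefore cannot show how such a shift, or the scaling, affects the calls.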
